A study of Mus musculus with 17 samples.

Results

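Amino acid transporter genes were examined across the thymi of 17 mice. They were taken as all genes whose array symbol starts with Slc1a, Slc3a, Slc6a, Slc7a, Slc36a, Slc38a or Slc43a followed by a digit, with 1 gene of the Slc6a family left out by the rule. The rule gave 62 genes of the 18193 genes that have a probe set with a single symbol. Of these, 3 lie on the opposite strand of a transporter gene (Slc7a6os, Slc36a1os and 1 other that is not described), which left 59 transporter genes with 119 probe sets. Where a gene had several probe sets, the one brightest on average stands for it.

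The mice were 8 Tcf1-/- mice with a thymic lymphoma, 4 Tcf1-/- mice without a tumor and 5 Tcf1+/- control mice. All were on a C57Bl/6 background and carried the ΔVII allele of Tcf1, a transcription factor of the Wnt pathway that is needed for T-cell development, on both chromosomes (ΔVII/ΔVII) in both Tcf1-/- groups and on 1 chromosome (wt/ΔVII) in the controls, so no group was free of the allele. By the labels the RNA came from homogenized thymus, while the study's methods speak of homogenized thymocytes, so the sources differ on which cells went in, and each thymus went onto an Affymetrix array of its own. The labels give no ages and each mouse is 1 sample, so the p-values measure the spread between mice.

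Amino acids cross membranes through carriers of the solute carrier (SLC) families. Light chains of the Slc7 family reach the cell surface as heterodimers with the heavy chain encoded by Slc3a2, known as CD98, and many of them exchange one amino acid for another, so that glutamine taken up by one carrier can leave in exchange for leucine. Activated and growing T cells are known to raise the uptake of leucine, glutamine and arginine, which serve protein synthesis and the activity of the kinase complex mTORC1, while other members carry neurotransmitters, taurine or creatine.

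Signals are log2 values obtained by RMA, so a difference of 1 is a factor of 2 in signal, and levels of different genes were not compared since each probe set has its own brightness. Genes entered the tests when their signal exceeded the 40th percentile of its array, 4.687 to 4.979 on this scale, on 4 or more arrays. Of the 59 transporter genes, 40 passed and 19 did not. The tested genes were 5 of 7 in the Slc1 family, 2 of 2 in Slc3, 10 of 19 in Slc6, 9 of 15 in Slc7, 4 of 4 in Slc36, 7 of 9 in Slc38 and 3 of 3 in Slc43. Of the 40, 32 lay above that percentile on all 17 arrays and 6 on only 4 to 7 arrays. The dim genes were Slc1a1, Slc1a6, Slc6a3, Slc6a5, Slc6a11, Slc6a12, Slc6a14, Slc6a15, Slc6a16, Slc6a20a, Slc6a20b, Slc7a8, Slc7a9, Slc7a10, Slc7a12, Slc7a14, Slc7a15, Slc38a4 and Slc38a5. Their group means lay between 3.47 and 4.8, and 15 of the 19 were above the percentile on no array.

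On 4 arrays, those of lymphoma replicates 1 and 2 and Tcf1+/- replicates 1 and 2, the log2 values had an interquartile range of 2.929 to 3.061, while the other 13 arrays had one of 3.488 to 3.752. Y-linked transcripts were present in 2 of 8 lymphoma mice, 4 of 4 tumor-free Tcf1-/- mice and 4 of 5 Tcf1+/- mice. The mean log2 signal of 12 thymocyte markers was 10.45 to 11.98 in lymphomas, 10.88 to 11.48 in tumor-free Tcf1-/- thymi and 12.19 to 12.66 in Tcf1+/- thymi. Of these markers, 8 fell in lymphomas and 10 fell in tumor-free Tcf1-/- thymi, each against Tcf1+/- thymi. Of all genes tested, 4.21% and 4.7% fell in the same comparisons. In lymphomas the log2 fold changes of Cd4, Cd8b1 and Cd8a were the lowest (-3.31, -3.23 and -2.89). Cd3d, Cd3e and Cd3g (-0.01, 0.01 and -0.22) and Ptcra (1.38) did not pass the test there. In these bulk samples, fewer cells of a type, another stage of its cells and less RNA per cell cannot be told apart. The disrupted gene itself was not analysed here, so the genotypes rest on the labels.

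Between 1 and 4 of the 40 tested transporter genes were called per comparison, and a gene that was not called is not thereby unchanged. Calls required an adjusted p under 0.05 from limma, with the adjustment made over the 13755 genes tested. In lymphomas against Tcf1+/- thymi, Slc7a5 and Slc7a1 rose and Slc43a2 and Slc7a11 fell, 4 of 40 (10%), where 12.7% of all genes tested were called. By direction these were 2 higher, where 8.51% of all genes were called higher, and 2 lower, where 4.21% were called lower. In tumor-free Tcf1-/- thymi against Tcf1+/- thymi, Slc7a7 and Slc6a4 rose and Slc7a11 fell, 3 of 40 (7.5%), where 14.8% of all genes tested were called (10.1% higher and 4.7% lower). Slc7a11 passed the filter mainly through controls and through no tumor-free thymus, so its calls in both comparisons count a gene admitted where it is high. In lymphomas against tumor-free Tcf1-/- thymi, Slc7a7 alone fell, 1 of 40 (2.5%), where 14.7% of all genes tested were called (6.34% higher and 8.35% lower). At an unadjusted p under 0.05 the counts were 11, 11 and 3 of 40 in the same order (27.5%, 27.5% and 7.5%), against 25.6%, 25.9% and 29.5% of all genes tested.

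The median log2 fold change of the 40 genes was 0.03 in lymphomas against Tcf1+/- thymi (0.06 over all genes tested), -0.04 in tumor-free Tcf1-/- thymi against Tcf1+/- thymi (-0.01 over all genes) and 0.04 in lymphomas against tumor-free Tcf1-/- thymi (0.10 over all genes). The median of their absolute log2 fold changes was 0.27, 0.24 and 0.15 in the same order, against 0.26, 0.26 and 0.32 over all genes tested. The 3 comparisons share mice, so their values for a gene are not independent of each other.

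**Figure D1:**
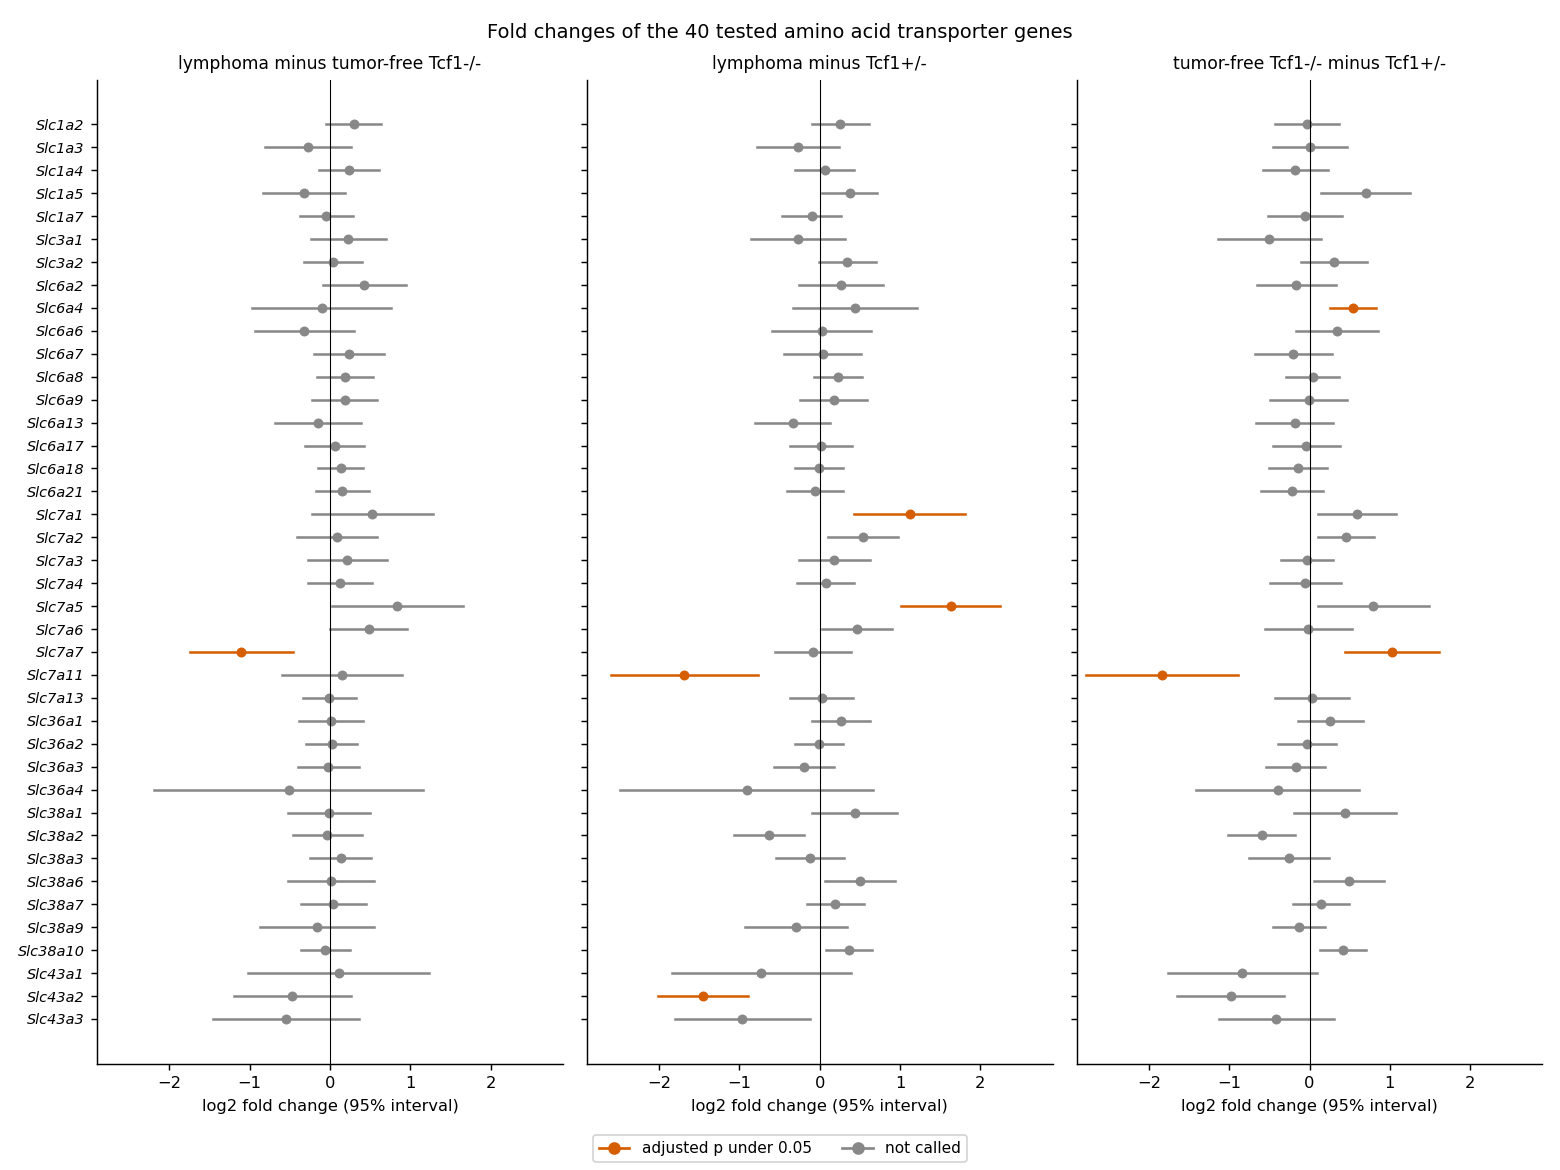
Log2 fold change (x axis) with its 95% interval from limma for each of the 40 tested transporter genes (y axis, ordered by family) in the 3 comparisons, orange where the adjusted p is under 0.05 and grey otherwise. The called genes number 1, 4 and 3 from left to right, and Slc7a5, Slc7a1, Slc7a7 and Slc7a11 of the Slc7 family are among them. Slc7a11 entered the tests mainly through the controls.

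Slc3a2, which encodes the heavy chain CD98, did not pass the test in any comparison. Its log2 signal in lymphomas ran from 9.99 through a median of 10.52 to 10.69. It was 10.54, 10.60, 10.30 and 10.16 in tumor-free Tcf1-/- thymi and 9.70, 9.86, 10.29, 10.32 and 10.31 in Tcf1+/- thymi. The groups overlapped, the 2 lowest control values coming from the arrays of low interquartile range. The log2 fold change was 0.34 in lymphomas (standard error 0.17, adjusted p = 0.218 from limma) and 0.30 in tumor-free Tcf1-/- thymi (adjusted p = 0.362 from limma), each against Tcf1+/- thymi, and 0.04 between lymphomas and tumor-free Tcf1-/- thymi (adjusted p = 0.907 from limma).

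Slc7a5, the light chain LAT1 that carries leucine and other large neutral amino acids with CD98, rose in lymphomas relative to Tcf1+/- thymi. In lymphomas its log2 signal ran from 8.795 through a median of 9.78 to 10.40, and it was 7.72, 9.44, 9.03 and 8.95 in tumor-free Tcf1-/- thymi and 8.35, 8.11, 7.63, 7.99 and 7.88 in Tcf1+/- thymi. All 8 lymphomas lay above the highest control, and so did 3 of 4 tumor-free Tcf1-/- thymi, replicate 1 being the exception. The lymphomas formed a lower set of 3 (replicates 3, 4 and 5, at 8.80, 8.92 and 8.98) and a higher set of 5 from 9.63 upward, and the lower set lay within the range of the tumor-free Tcf1-/- thymi. Lymphomas exceeded Tcf1+/- thymi by a log2 fold change of 1.63, a factor of 3.10 (standard error 0.29, 95% interval 1.02 to 2.25, adjusted p = 0.00258 from limma). Within the 4 arrays of low interquartile range the difference was 1.88 (2 against 2 mice), and within the others it was 1.62 (6 against 3 mice).

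Between lymphomas and tumor-free Tcf1-/- thymi the Slc7a5 difference was 0.84 (standard error 0.38, adjusted p = 0.156 from limma), with 5 of 8 lymphomas above the highest tumor-free thymus. Between tumor-free Tcf1-/- thymi and Tcf1+/- thymi it was 0.79 (standard error 0.31, adjusted p = 0.131 from limma). Neither passed the test. Without Tcf1-/- replicate 1, the lowest of its group, tumor-free Tcf1-/- thymi were 1.15 above Tcf1+/- thymi, with an adjusted p of 0.00493 from limma. This was the 1 of 24 alternatives that called Slc7a5 in this comparison, and leaving out the lowest mouse raises the difference by itself.

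Slc7a1, the carrier CAT1 of arginine and lysine, also rose in lymphomas relative to Tcf1+/- thymi, with less margin. Lymphomas had log2 signals from 9.0 through a median of 10.78 to 11.24, and it was 9.63, 10.31, 10.11 and 10.06 in tumor-free Tcf1-/- thymi and 9.34, 8.83, 9.62, 9.71 and 9.70 in Tcf1+/- thymi. Of the 8 lymphomas, 7 lay above the highest control, and lymphoma replicate 5 was the lowest of the lymphomas, within the range of the controls. Against Tcf1+/- thymi the log2 fold change was 1.12, a factor of 2.17 (standard error 0.32, adjusted p = 0.0353 from limma). A second probe set of the gene gave 0.98 (adjusted p = 0.0378 from limma over all probe sets). The difference was 1.88 within the arrays of low interquartile range (2 against 2 mice) and 0.75 within the others (6 against 3 mice), where it did not pass the test (adjusted p = 0.255 from limma). The call was also lost on leaving out any 1 of lymphoma replicates 1, 2, 6, 7 and 8 or of the 5 controls, where the adjusted p ran from 0.0539 to 0.0976.

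In the mouse-number block, which used the 5 lymphomas and 5 controls that share a number, the fold change of Slc7a1 was 0.90 (adjusted p = 0.149 from limma), and it was the 1 called gene that lost its call there. With this block Slc38a2 (-0.67, adjusted p = 0.0207 from limma) and Slc36a4 (-1.83, adjusted p = 0.0178 from limma) passed in addition. In the same mice without the block, Slc36a4 also passed (adjusted p = 0.0353 from limma), while Slc7a1 and Slc7a11 did not (adjusted p = 0.211 and 0.136 from limma).

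The promoter windows of RefSeq (build GRCm38.p6, stretches of one length around annotated start sites) cover 42 of the 59 genes with 63 windows, and were searched on both strands for 3 motifs by their letters. The 7 letters CTTTGAT, which TCF/LEF factors bind, were in 3.73% of all 32851 windows and in 5 of the 63 windows of transporter genes (7.94%), those of Slc1a2, Slc6a16, Slc7a1, Slc38a9 and Slc38a10. A stretch from the window of Slc7a1 is shown because this gene was called in the comparison of lymphomas with controls. The stretch printed is part of that window, at chr5:148392837-148392883 on the minus strand, and holds the motif in reverse orientation (capitals), starting 48 bases before an annotated start site.
Slc7a1: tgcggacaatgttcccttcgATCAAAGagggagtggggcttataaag
A match is a description of the letters only.

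Slc7a11, the light chain xCT that takes up cystine in exchange for glutamate, was lower in both Tcf1-/- groups than in Tcf1+/- thymi. The log2 signal of Slc7a11 ran in lymphomas from 3.97 through a median of 4.19 to 5.78, and it was 4.34, 4.33, 4.41 and 4.59 in tumor-free Tcf1-/- thymi and 4.82, 5.76, 7.31, 6.53 and 6.82 in Tcf1+/- thymi. All 4 tumor-free thymi and 6 of 8 lymphomas lay below the lowest control, while lymphoma replicates 4 and 5, at 5.78 and 5.65, lay within the range of the controls. The signal was above the 40th percentile on 6 arrays only, namely those of 4 controls and of lymphoma replicates 4 and 5. All 4 tumor-free thymi and the other 6 lymphomas lay below it, so the gene was tested mainly through the controls, and the sizes of the differences that follow run down to signals that did not pass the filter and are no measured ratio of levels. Relative to Tcf1+/- thymi, the log2 fold change was -1.69 in lymphomas (standard error 0.43, adjusted p = 0.0186 from limma) and -1.83 in tumor-free Tcf1-/- thymi (standard error 0.43, adjusted p = 0.0156 from limma). A second probe set gave -1.58 in lymphomas (adjusted p = 0.00174 from limma over all probe sets) and -2.003 in tumor-free thymi (adjusted p = 0.00048 from limma over all probe sets).

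Between lymphomas and tumor-free Tcf1-/- thymi Slc7a11 differed by 0.15 (standard error 0.34, 95% interval -0.60 to 0.89, adjusted p = 0.818 from limma). Within the arrays of low interquartile range, lymphomas differed from controls by -1.04 (2 against 2 mice), and within the others by -2.22 (6 against 3 mice). The call in lymphomas was lost without Tcf1+/- replicate 3, 4 or 5 (adjusted p = 0.0592, 0.0502 and 0.0573 from limma) and in a fit with a covariate for Y-linked signal (-1.24, adjusted p = 0.138 from limma). The lower level in both Tcf1-/- groups stood beside lower values of most thymocyte markers given above. The part of cell composition or stage in it was not tested.

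Slc7a7, the light chain y+LAT1 that exchanges arginine and lysine for neutral amino acids with sodium and is known from human macrophages and kidney, was higher in tumor-free Tcf1-/- thymi than in both other groups. Signals in lymphomas ran on the log2 scale from 4.72 through a median of 5.87 to 6.27. It was 7.69, 6.88, 6.60 and 6.24 in tumor-free Tcf1-/- thymi, and 6.01, 5.99, 5.80, 5.83 and 5.53 in Tcf1+/- thymi. The tumor-free thymi did not overlap with the controls, and 7 of 8 lymphomas lay below the lowest of them. The log2 fold change was 1.02 in tumor-free Tcf1-/- thymi against Tcf1+/- thymi (standard error 0.26, adjusted p = 0.0247 from limma) and -1.11 in lymphomas against tumor-free Tcf1-/- thymi (standard error 0.30, adjusted p = 0.0248 from limma). In the same 2 comparisons a second probe set gave 0.76 and -0.98, with adjusted p of 0.0271 and 0.00196 from limma over all probe sets. Lymphomas differed from controls by -0.08 (95% interval -0.55 to 0.39, adjusted p = 0.881 from limma).

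Between the groups, markers of macrophages and monocytes moved with Slc7a7. Of 11 such markers tested, 9 fell in lymphomas and none rose against tumor-free Tcf1-/- thymi, where 8.35% of all genes were called lower. In tumor-free Tcf1-/- thymi against Tcf1+/- thymi 10 rose and none fell, where 10.1% of all genes were called higher. In lymphomas against Tcf1+/- thymi their median log2 fold change was -0.21. Their mean log2 signal was 5.90 to 8.64 in lymphomas, 8.96 to 10.84 in tumor-free Tcf1-/- thymi and 6.93 to 8.13 in Tcf1+/- thymi. In the 4 tumor-free thymi it was 10.84, 9.99, 9.53 and 8.96 for replicates 1 to 4. Markers of other cell types rose in tumor-free Tcf1-/- thymi too, namely those of B cells (8 of 9 higher against controls), dendritic cells (6 of 8), NK cells (4 of 5), fibroblasts (4 of 9) and neutrophils (2 of 7, with a median log2 fold change of 2.58). The share of all genes called higher was 10.1% here as well. Of endothelial-cell markers 1 of 4 rose, and of 14 thymic epithelial markers 1 rose and 1 fell. For replicates 1 to 4 the mean of the B-cell markers was 10.55, 9.47, 9.20 and 8.74, that of the dendritic-cell markers 9.27, 8.78, 8.19 and 7.71 and that of the neutrophil markers 7.55, 11.1, 11.55 and 10.39. The mean of the NK-cell markers was 9.24, 8.549, 8.774 and 7.764 and that of the fibroblast markers 6.065, 6.308, 5.675 and 5.762. In these 4 mice the macrophage, B-cell and dendritic-cell markers thus had the same order as Slc7a7. Endothelial-cell markers (5.422, 5.273, 5.272 and 5.097) and the amino acid response genes described below (8.272, 8.22, 7.982 and 7.846) had it too. The order was thus not particular to those cell types. The NK-cell, fibroblast and neutrophil markers had other orders. Among controls, Slc7a7 was 5.99 to 6.01 in the 2 mice on arrays of low interquartile range and 5.53 to 5.83 in the other 3. The macrophage markers went the other way there, at 6.93 to 6.95 against 8.01 to 8.13. The part of any cell type in the Slc7a7 values was not tested. The fall in lymphomas was lost without Tcf1-/- replicate 1 (-0.83, adjusted p = 0.107 from limma), without Tcf1-/- replicate 2 (adjusted p = 0.0668 from limma) and in a fit with a covariate for Y-linked signal (-0.88, adjusted p = 0.332 from limma). The rise in tumor-free thymi was lost without Tcf1-/- replicate 2 or Tcf1+/- replicate 3, 4 or 5, where the adjusted p from limma was 0.0535 to 0.0692.

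**Figure D2:**
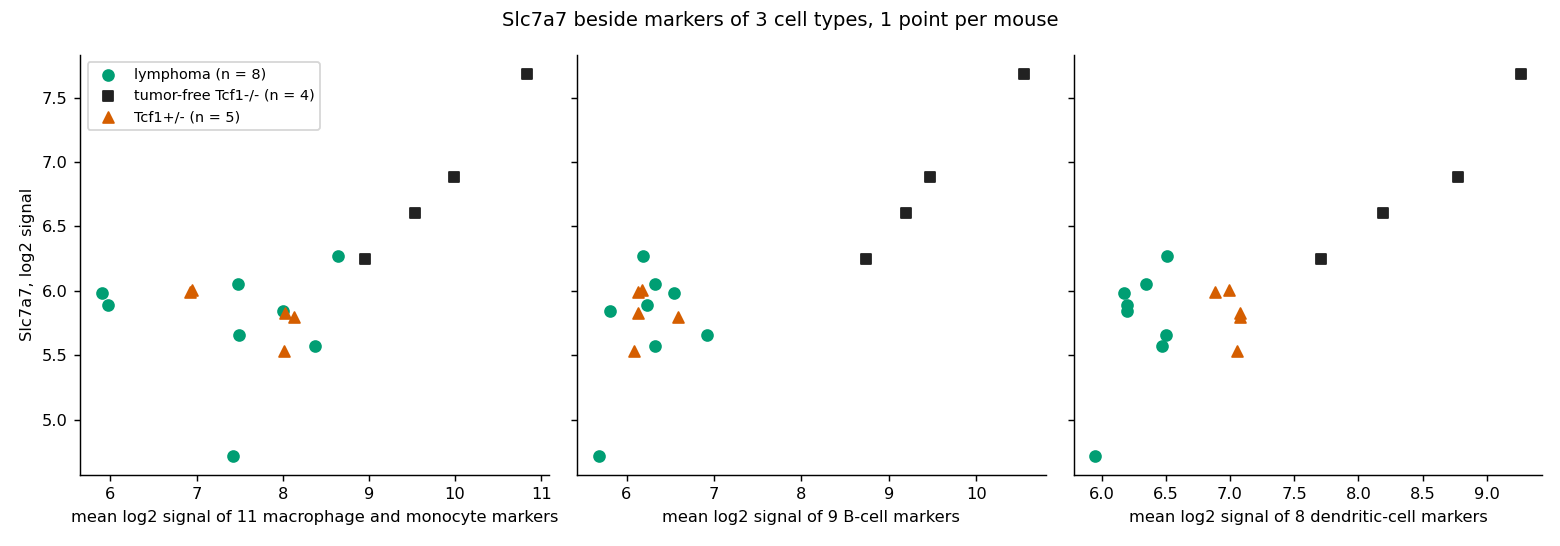
Log2 signal of Slc7a7 (y axis) against the mean log2 signal of 11 macrophage and monocyte, 9 B-cell and 8 dendritic-cell markers (x axes, 1 panel each), 1 point per mouse, with circles for lymphomas, squares for tumor-free Tcf1-/- thymi and triangles for Tcf1+/- thymi. The tumor-free Tcf1-/- thymi run from 8.96 to 10.84, from 8.74 to 10.55 and from 7.71 to 9.27 on the x axes, and Slc7a7 has the same order of these 4 mice as the markers in each panel. The NK-cell, fibroblast and neutrophil markers, which had other orders, are not drawn. Endothelial-cell markers, which had the same order, are not drawn either.

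The letters TGATGNAAN, the amino acid response element to which the stress factor Atf4 binds with C/EBP proteins, were in 3.95% of all promoter windows and in 5 of the 63 windows of transporter genes (7.94%), those of Slc1a4, Slc6a21, Slc7a7 and Slc7a11. The stretches of both Slc7 genes are shown because these genes were called in opposite directions in tumor-free Tcf1-/- thymi. That of Slc7a11 (chr3:50443633-50443699, minus strand) holds the motif in both orientations, starting 66 and 48 bases before the start site, and that of Slc7a7 (chr14:54418057-54418105, minus strand) holds it once, starting 141 bases before, with a further match across the start site that is not shown. Capitals mark the motif.
Slc7a11: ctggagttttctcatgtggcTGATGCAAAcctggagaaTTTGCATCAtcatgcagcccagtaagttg
Slc7a7: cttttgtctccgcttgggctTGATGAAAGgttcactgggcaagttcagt
The third motif, the E-box CACGTG, was in 7.15% of all windows and in 9 of the 63 windows of transporter genes (14.3%), Slc43a1 and Slc36a1 among them but no called gene that has a window. The called gene Slc7a5 has no window, so it was not searched for any of the 3 motifs.

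Slc7a6, the light chain y+LAT2, is described although it did not pass the test. It differed by 0.48 in lymphomas against tumor-free Tcf1-/- thymi (adjusted p = 0.169 from limma), with 7 of 8 lymphomas above the highest tumor-free thymus, and by 0.47 against Tcf1+/- thymi (adjusted p = 0.163 from limma). Slc7a2, a further carrier of cationic amino acids, was above the 40th percentile on 4 arrays only and differed by 0.54 in lymphomas and by 0.45 in tumor-free Tcf1-/- thymi, each against Tcf1+/- thymi (adjusted p = 0.1004 and 0.0824 from limma). These and the other uncalled genes described were chosen after their values were seen.

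Within the 8 lymphomas, the signals of Slc3a2 and of its light-chain genes were set against each other, mouse by mouse, for the 4 light chains that passed the filter. Of these, Slc7a11 was below the 40th percentile in 6 of 8 lymphomas, so its coefficient is not given, although it counts in the adjustment. For Slc7a5, Pearson's r was 0.756 (exact two-sided permutation p = 0.0432, adjusted over the 4 relations 0.173) and Spearman's rho was 0.738 (exact permutation p = 0.0458, adjusted 0.0917). Without lymphoma replicates 3 and 5, the mice farthest from the median of Slc3a2, r was 0.385. Leaving them out also narrows the range of Slc3a2, which can lower r by itself. Whether the relation rested on those mice thus cannot be told. Within the 6 lymphomas whose arrays had the wider range, r was 0.816. For Slc7a6 and Slc7a7, r was 0.513 and 0.688 and rho was 0.619 and 0.738. The adjusted exact permutation p for r was 0.319 and 0.209, and for rho it was 0.153 and 0.0917, so none of the relations given passed the adjustment.

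**Figure D3:**
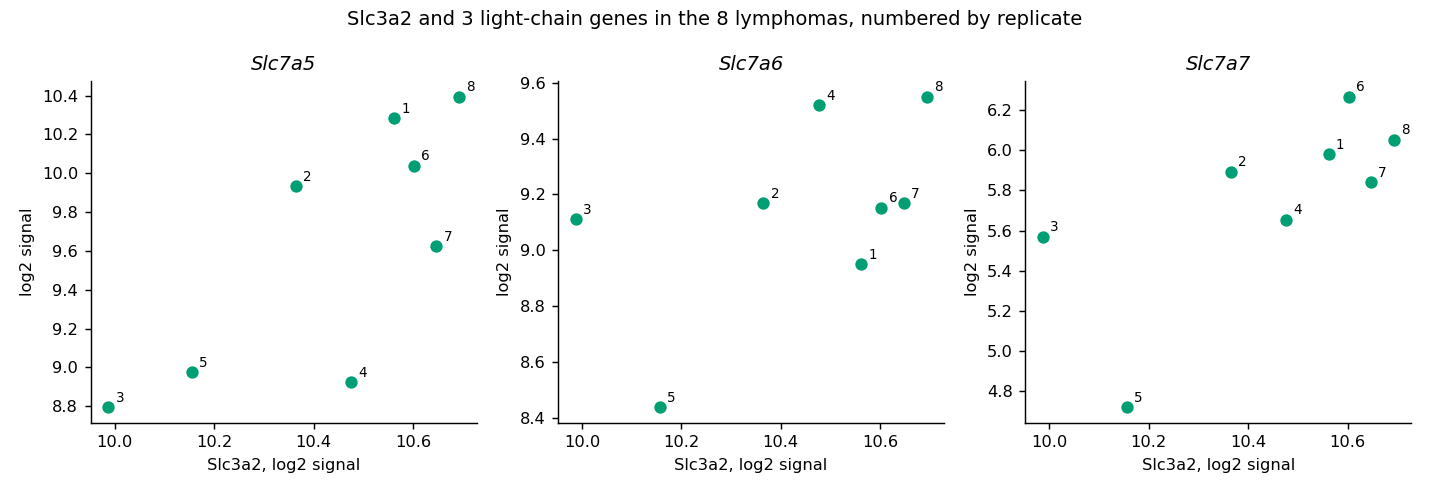
Log2 signal of Slc7a5, Slc7a6 and Slc7a7 (y axis, 1 panel each) against the log2 signal of Slc3a2 (x axis) in the 8 lymphomas, each point labelled with its replicate number. Lymphoma replicates 3 and 5 lie at the left of each panel, and r runs from 0.513 for Slc7a6 to 0.756 for Slc7a5.

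Slc1a5, the glutamine exchanger ASCT2, did not pass the test in any comparison. Lymphomas had log2 signals of this gene from 8.01 through a median of 8.30 to 8.88, and it was 8.92, 9.13, 9.01 and 7.88 in tumor-free Tcf1-/- thymi and 7.87, 8.29, 7.86, 8.09 and 8.05 in Tcf1+/- thymi. In tumor-free Tcf1-/- thymi 3 of 4 mice lay above all controls and all lymphomas, and replicate 4 lay at the low end of the controls. The log2 fold change against Tcf1+/- thymi was 0.70 in tumor-free Tcf1-/- thymi (standard error 0.25, adjusted p = 0.0956 from limma) and 0.38 in lymphomas (adjusted p = 0.153 from limma). Without Tcf1-/- replicate 4, the lowest of its group, the gene passed in tumor-free thymi (0.99, adjusted p = 0.00276 from limma). This was the 1 of 24 alternatives that called it there, and leaving out the lowest mouse raises the difference by itself. A second, dimmer probe set gave 0.03 in tumor-free thymi and -0.27 in lymphomas against Tcf1+/- thymi (adjusted p = 0.977 and 0.682 from limma over all probe sets).

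Slc38a1 and Slc38a2 encode the sodium-coupled carriers SNAT1 and SNAT2 of glutamine and other small neutral amino acids. Slc38a1 ran from 10.26 through a median of 10.90 to 11.46 in lymphomas, and was 10.36, 11.28, 10.98 and 10.92 in tumor-free Tcf1-/- thymi and 10.22, 9.61, 10.62, 10.85 and 10.90 in Tcf1+/- thymi. The 3 groups overlapped, and the difference from Tcf1+/- thymi was 0.43 in lymphomas (adjusted p = 0.313 from limma) and 0.44 in tumor-free Tcf1-/- thymi (adjusted p = 0.3998 from limma).

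Slc38a2 lay lower in both Tcf1-/- groups, without passing the test. It ran from 10.45 through a median of 11.07 to 11.60 in lymphomas, and was 10.95, 11.18, 11.27 and 11.04 in tumor-free Tcf1-/- thymi and 11.56, 11.22, 11.72, 11.99 and 12.04 in Tcf1+/- thymi. No lymphoma lay above the 3 highest controls, while the lowest control overlapped with both Tcf1-/- groups. The log2 fold change against Tcf1+/- thymi was -0.63 in lymphomas (standard error 0.20, adjusted p = 0.0580 from limma) and -0.60 in tumor-free Tcf1-/- thymi (standard error 0.19, adjusted p = 0.0618 from limma). Without the 4 arrays of low interquartile range both passed (-0.70, adjusted p = 0.0361, and -0.81, adjusted p = 0.00693, from limma), whereas another probe set of the gene gave -1.08 in lymphomas and 0.04 in tumor-free Tcf1-/- thymi (adjusted p = 0.202 and 0.979 from limma over all probe sets).

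Slc43a2, the carrier LAT4 that lets branched-chain and other neutral amino acids pass along their gradient, fell in lymphomas relative to Tcf1+/- thymi. Its log2 signal in lymphomas ran from 7.81 through a median of 8.64 to 9.36, and it was 9.69, 9.27, 9.09 and 8.10 in tumor-free Tcf1-/- thymi and 10.54, 10.10, 9.76, 9.91 and 9.79 in Tcf1+/- thymi. All 8 lymphomas and all 4 tumor-free thymi lay below the lowest control. The fold change on the log2 scale was -1.45 in lymphomas against Tcf1+/- thymi (standard error 0.26, 95% interval -2.01 to -0.89, adjusted p = 0.00306 from limma), a factor of 2.74 lower. It was -0.98 in tumor-free Tcf1-/- thymi against Tcf1+/- thymi (standard error 0.30, adjusted p = 0.0541 from limma), which did not pass, while a second probe set gave -1.13 (adjusted p = 0.00793 from limma over all probe sets) there and -1.11 in lymphomas (adjusted p = 0.00655 from limma over all probe sets). The difference of lymphomas from controls was -1.60 within the arrays of low interquartile range (2 against 2 mice) and -1.31 within the others (6 against 3 mice). Between lymphomas and tumor-free Tcf1-/- thymi it was -0.47 (adjusted p = 0.383 from limma).

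The other members of the Slc43 family varied widely among lymphomas. Slc43a1, the related carrier LAT3, ran from 5.85 through a median of 7.35 to 8.45 in lymphomas, and was 6.41, 7.37, 7.39 and 7.30 in tumor-free Tcf1-/- thymi and 6.75, 7.31, 8.57, 8.56 and 8.58 in Tcf1+/- thymi. The controls split by array set, and the difference of tumor-free Tcf1-/- thymi from them was -0.83 over all arrays (adjusted p = 0.247 from limma) and -1.45 without the arrays of low interquartile range (adjusted p = 0.00705 from limma). Slc43a3, which is known to carry purine bases, differed by -0.97 in lymphomas against Tcf1+/- thymi (adjusted p = 0.132 from limma), with 6 of 8 lymphomas below the lowest control.

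Among carriers of lysosomes and endomembranes, Slc38a9, the arginine sensor of lysosomal mTORC1, differed by -0.30 in lymphomas against Tcf1+/- thymi (adjusted p = 0.622 from limma), and Slc36a1, a lysosomal proton-coupled carrier, by 0.27 (adjusted p = 0.368 from limma). Slc36a4 was the most variable tested transporter gene among lymphomas, with a standard deviation of 1.68 on the log2 scale. It was 4.06, 4.46, 5.26, 4.14, 4.06, 7.24, 8.53 and 4.74 in lymphoma replicates 1 to 8, so that replicates 6 and 7 stood above all controls and 5 of the other 6 below the lowest control. It was 5.90, 6.55, 5.37 and 5.47 in tumor-free Tcf1-/- thymi and 5.15, 5.23, 6.84, 6.79 and 7.10 in Tcf1+/- thymi, and its difference between lymphomas and Tcf1+/- thymi was -0.91 (standard error 0.74, adjusted p = 0.514 from limma).

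Slc38a6 and Slc38a10 of the Slc38 family had similar differences in both Tcf1-/- groups, none of which passed the test. Slc38a6 differed from Tcf1+/- thymi by 0.50 in lymphomas and by 0.49 in tumor-free Tcf1-/- thymi (adjusted p = 0.130 and 0.141 from limma). Slc38a10 differed by 0.36 and 0.42 (adjusted p = 0.0990 and 0.0587 from limma), and its 4 tumor-free Tcf1-/- thymi lay above all controls.

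The Slc6 family holds carriers of neurotransmitters, and its called gene was Slc6a4, the serotonin transporter. Its log2 signal in lymphomas ran from 5.18 through a median of 5.38 to 7.76, and it was 5.73, 5.88, 5.81 and 5.79 in tumor-free Tcf1-/- thymi and 5.12, 5.23, 5.21, 5.45 and 5.27 in Tcf1+/- thymi. All 4 tumor-free thymi lay above the highest control, by a small margin and with little spread, and lymphoma replicate 7 stood alone at the top. The difference on the log2 scale of tumor-free Tcf1-/- thymi against Tcf1+/- thymi was 0.54 (standard error 0.13, adjusted p = 0.0167 from limma), while lymphomas differed from controls by 0.44 (standard error 0.36, adjusted p = 0.519 from limma). The call was lost in a single fit of all 17 arrays, which takes in the spread of the lymphomas (adjusted p = 0.494 from limma), and without Tcf1-/- replicate 2 or 3 (adjusted p = 0.0617 and 0.0502 from limma).

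Slc6a6, the taurine transporter, lay at 9.75 ± 0.58 (SD, n = 8) in lymphomas, 10.1 ± 0.17 (SD, n = 4) in tumor-free Tcf1-/- thymi and 9.73 ± 0.45 (SD, n = 5) in Tcf1+/- thymi, and no comparison passed the test. The remaining 20 tested genes, among them the glutamate transporters Slc1a2 and Slc1a3, the creatine transporter Slc6a8, the glycine transporter Slc6a9 and the norepinephrine transporter Slc6a2, had group means of 4.44 to 7.40. Their log2 fold changes lay between -0.27 and 0.43 in lymphomas against tumor-free Tcf1-/- thymi, between -0.34 and 0.26 in lymphomas against Tcf1+/- thymi and between -0.50 and 0.15 in tumor-free Tcf1-/- thymi against Tcf1+/- thymi, with adjusted p of 0.237 or more from limma. For Slc6a8 the probe set mattered. Its log2 fold change in lymphomas against tumor-free Tcf1-/- thymi was 0.19, but 0.79 with the probe set of highest variance and 0.49 with the mean of its probe sets (adjusted p = 0.0206 and 0.0492 from limma). Among the dim genes, Slc7a8, the light chain LAT2, was below the 40th percentile on all 17 arrays, and its group means of 4.05 in lymphomas, 4.66 in tumor-free Tcf1-/- thymi and 4.05 in Tcf1+/- thymi are signals at that low level.

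**Figure D4:**
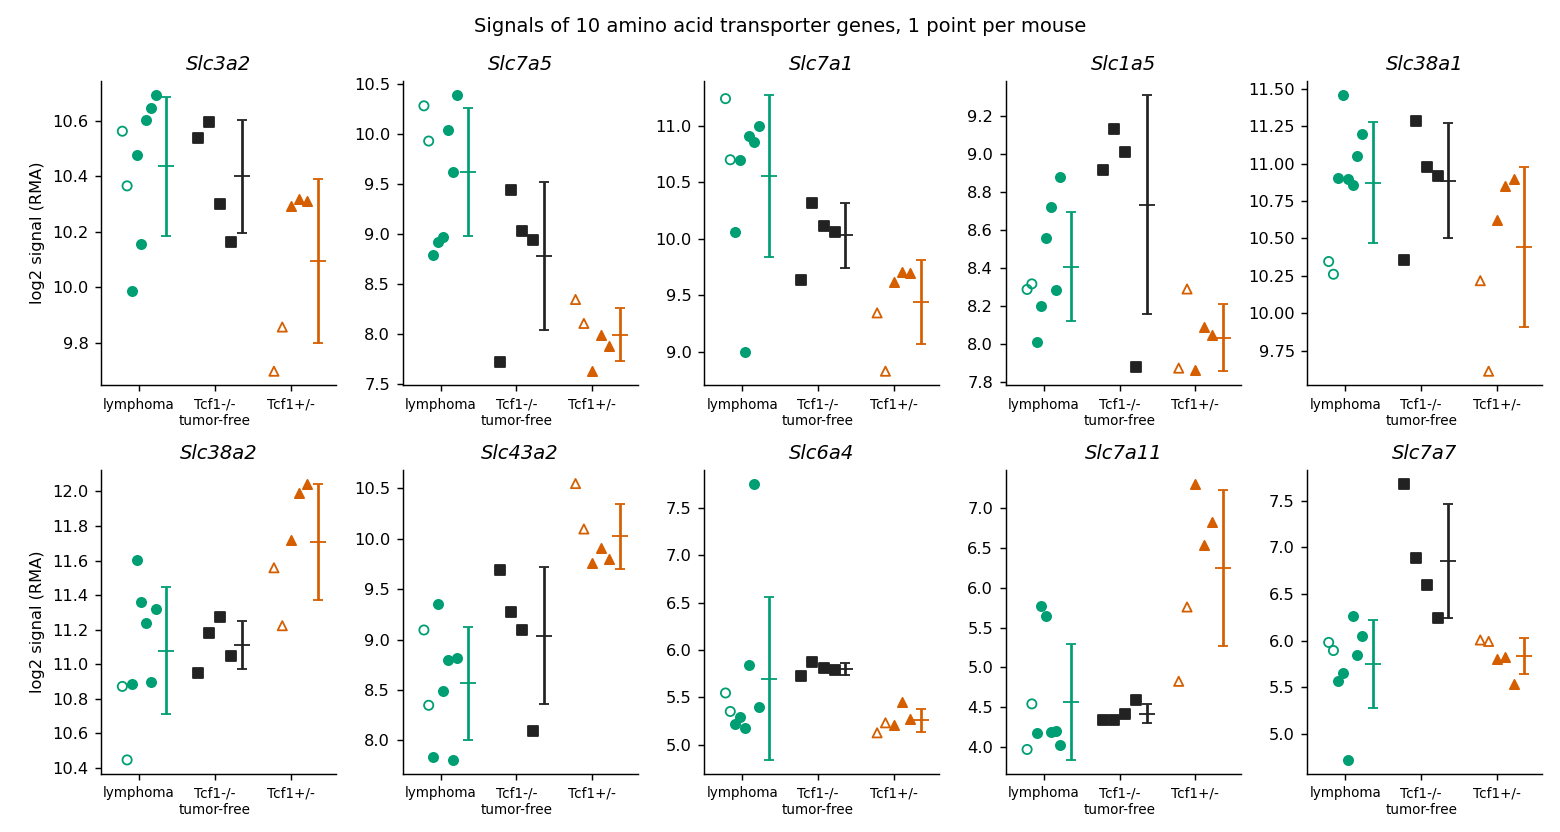
Log2 signal (y axis, each panel with its own scale) of 10 transporter genes in each mouse, with circles for lymphomas (n = 8), squares for tumor-free Tcf1-/- thymi (n = 4) and triangles for Tcf1+/- thymi (n = 5), open symbols for the 4 arrays of low interquartile range, and bars for the mean ± SD. For Slc43a2 all mice of both Tcf1-/- groups lie below the lowest control, and for Slc7a5 all 8 lymphomas lie above the highest control.

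Genes that act with the transporters were taken as lists, described by counts and medians. Cytosolic aminoacyl-tRNA synthetases, which charge tRNAs with amino acids, had 19 tested members. Of these, 10 rose and none fell in lymphomas against Tcf1+/- thymi, where 8.51% of all genes were called higher and 4.21% lower, with a median log2 fold change of 0.61 against 0.06 over all genes. Vars, the valine enzyme, rose by 1.08 and Lars, the leucine enzyme, by 0.93 (adjusted p = 0.000509 and 0.00687 from limma), and the smallest called rises were those of Yars (0.61) and Rars (0.60). Against tumor-free Tcf1-/- thymi 4 rose in lymphomas (6.34% of all genes), Hars by 0.81, Eprs by 0.80, Lars by 0.75 and Qars by 0.41 (adjusted p = 0.00703, 0.0076, 0.0189 and 0.0445 from limma), and 2 rose in tumor-free Tcf1-/- thymi against Tcf1+/- thymi (10.1% of all genes), Vars by 1.13 and Wars by 0.48 (adjusted p = 0.00149 and 0.0424 from limma). In lymphomas against controls the count was 3 without the 4 arrays of low interquartile range, 5 without Tcf1+/- replicate 1, 6 without Tcf1+/- replicate 2 and 4 in the mouse-number block.

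Genes of the amino acid response, which Atf4 drives when amino acids are short, had called members in both Tcf1-/- groups. Of 19 tested, 4 rose in lymphomas against Tcf1+/- thymi, where 8.51% of all genes did, namely Shmt2 (1.36), Atf5 (1.05), Psat1 (0.95) and Phgdh (0.82), all but Atf5 enzymes of serine and glycine synthesis (adjusted p = 0.0035, 0.0175, 0.0222 and 0.00784 from limma). In tumor-free Tcf1-/- thymi against Tcf1+/- thymi 5 rose, where 10.1% of all genes did, Nupr1 by 2.53 and Cebpb by 1.77 the most (adjusted p = 0.00258 and 0.0197 from limma). Atf4 itself rose by 0.98 and Atf3 by 1.15 (adjusted p = 0.0112 and 0.0281 from limma), and Cebpb is also known from myeloid cells. Nupr1 and Atf3 had means of 5.07 and 5.03 in Tcf1+/- thymi, near the 40th percentile of 4.687 to 4.979. The sizes of their rises thus start from that low level and are no measured ratio of levels. In the same comparison 10 of 11 macrophage markers rose and the neutrophil markers had a median of 2.58, and their part in these values was not tested. The median was 0.42 in lymphomas and 0.36 in tumor-free Tcf1-/- thymi, against 0.06 and -0.01 over all genes. Directly compared, lymphomas had 3 of these genes higher and 2 lower than tumor-free Tcf1-/- thymi, where 6.34% of all genes were called higher and 8.35% lower, with Psat1 at 1.45 and Atf5 at 1.23 and with Atf3 at -1.02 and Nupr1 at -1.93 (adjusted p = 0.0236, 0.0139, 0.0253 and 0.0049 from limma). That count of 5 was 2 without Tcf1-/- replicate 1 and 0 in a fit with a covariate for Y-linked signal, and the count in tumor-free thymi was 3 without Tcf1-/- replicate 2.

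Among enzymes of glutamine, arginine and branched-chain amino acid use, 4 of 15 tested rose in lymphomas against Tcf1+/- thymi and none fell, where 8.51% of all genes were called higher, and the median log2 fold change was 0.46 against 0.06 over all genes. Arg1, which splits arginine, rose by 3.59 and Bcat1, which transaminates branched-chain amino acids, by 1.41 (adjusted p = 0.00257 and 0.0307 from limma), with Aldh18a1, which makes a precursor of proline and ornithine, at 1.10 and Odc1, the first enzyme of polyamine synthesis, at 0.95 (adjusted p = 0.0131 and 0.00632 from limma). Arg1 was also the 1 enzyme that rose against tumor-free Tcf1-/- thymi, by 3.31 (adjusted p = 0.00767 from limma), and this count of 1 of 15 is close to the 6.34% of all genes called higher. Its mean was 8.30 in lymphomas, but 4.71 in Tcf1+/- and 4.99 in tumor-free Tcf1-/- thymi, near the 40th percentile of 4.687 to 4.979. Both sizes of the Arg1 rise thus start from that low level and are no measured ratio of levels. In tumor-free Tcf1-/- thymi against Tcf1+/- thymi 3 rose and 1 fell, where 10.1% of all genes were called higher and 4.7% lower, with Odc1 at 1.19, Glud1, which deaminates glutamate, at 0.88, Aldh18a1 at 0.61 and Bcat2, which like Bcat1 transaminates branched-chain amino acids, at -0.73 (adjusted p = 0.0031, 0.0296, 0.0419 and 0.0168 from limma). The count in lymphomas against controls was 2 without the 4 arrays of low interquartile range, and that in tumor-free thymi was 2, 1 and 2 without Tcf1-/- replicate 2, Tcf1-/- replicate 3 and Tcf1+/- replicate 1.

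Of 24 tested genes of mTORC1 and lysosomal amino acid sensing, Rragd, a Rag GTPase that brings mTORC1 to lysosomes, fell in both Tcf1-/- groups, at -2.24 in lymphomas and -2.13 in tumor-free Tcf1-/- thymi, each against Tcf1+/- thymi (adjusted p = 0.0018 and 0.00397 from limma). It was the only called member in lymphomas against controls, 1 of 24 where 12.7% of all genes were called. The other comparisons had 4 of 24 called in tumor-free Tcf1-/- thymi against Tcf1+/- thymi (14.8% of all genes) and 2 of 24 in lymphomas against tumor-free Tcf1-/- thymi (14.7% of all genes), so the list as a whole was called about as often as all genes or less. In tumor-free Tcf1-/- thymi Sesn1 and Lamtor5 also fell, at -0.59 and -0.55, and Sesn3 rose by 1.20 (adjusted p = 0.0426, 0.0162 and 0.0186 from limma). Against tumor-free Tcf1-/- thymi, lymphomas had Sesn3 at -1.25 and Lamtor5 at 0.67 (adjusted p = 0.00484 and 0.0419 from limma). The medians of this list were 0.01 in lymphomas and 0.01 in tumor-free Tcf1-/- thymi against controls. The 9 tested proliferation genes had medians of -0.13 in lymphomas and -0.54 in tumor-free Tcf1-/- thymi against controls, and none of them was called in any comparison. Their mean log2 signal was 8.77 in Tcf1-/- replicate 1. In the other tumor-free thymi it was 10.83 to 10.99, within the control range of 10.65 to 11.31.

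**Figure D5:**
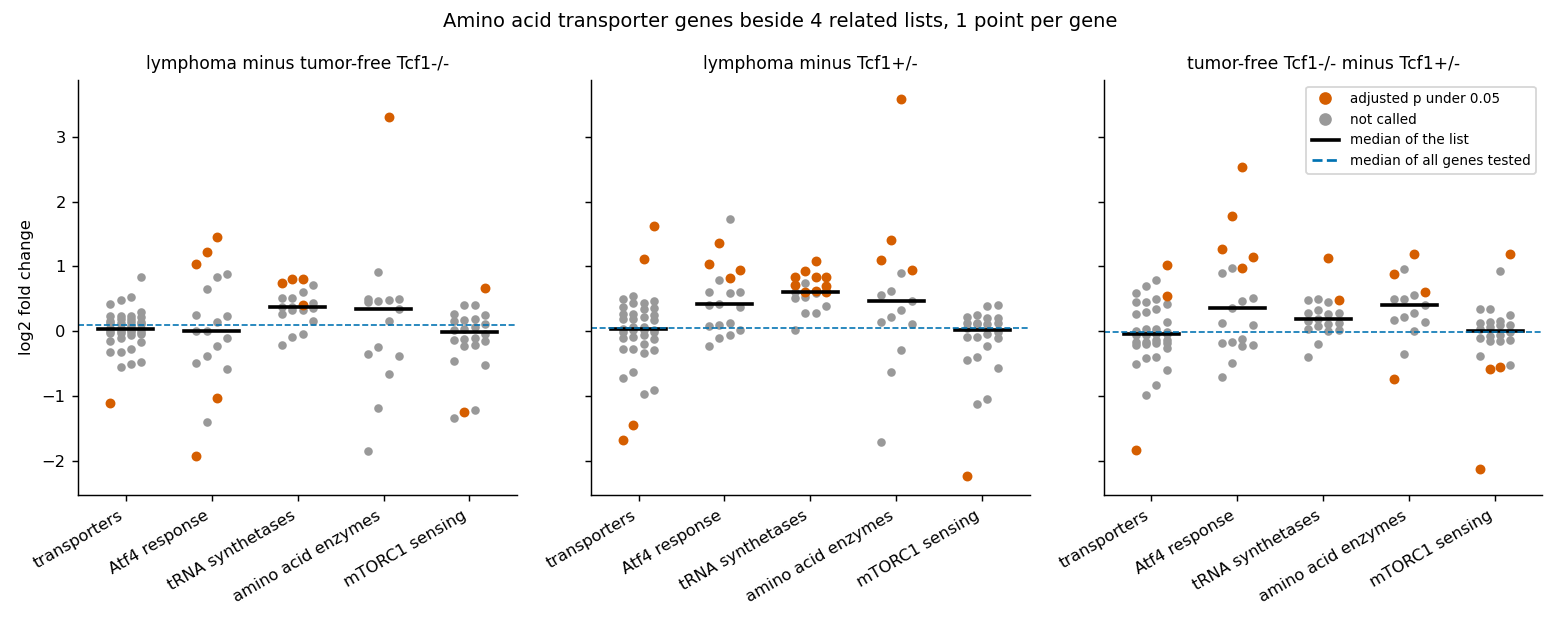
Log2 fold change (y axis) of each tested gene of 5 lists (x axis) in the 3 comparisons, orange for an adjusted p under 0.05, with a black bar for the median of the list and a dashed line for the median of all genes tested. Most synthetases lie above the dashed line in lymphomas against Tcf1+/- thymi, at a median of 0.61 against 0.06, while the median of the transporter genes is 0.03.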

How the data were processed

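The deposited log2 signals of the Affymetrix mouse arrays hold 1 value per probe set, which the authors obtained from scanner data by RMA (background correction, quantile normalization and summary per probe set), so that a shift common to most genes would be hidden. The version of RMA is not given in the sources used here. Gene symbols came from the platform annotation, which gives 1 symbol to 34945 of 45101 probe sets, several to 932 and none used here to 9160, besides 64 controls. Groups came from the sample labels. Each pair of groups was fitted with limma 3.58.1 in R 4.3.3 (empirical Bayes, Benjamini-Hochberg over all genes tested, called at an adjusted p under 0.05), and the fit was tested on simulated data. Correlations used exact permutation in scipy 1.17.1. The members and lists were chosen with earlier results of these data known. Transporter genes named by rule were Slc3a2, Slc7a5, Slc7a1, Slc1a5, Slc38a1 and Slc38a2 and all called ones with the 5 highest and 5 lowest fold changes per comparison, and of each related list up to 4 called genes, the 2 highest and the 2 lowest. The mouse numbers 1 to 5 are shared by lymphomas and Tcf1+/- mice, but the labels name no pairs. After subtraction of the group means the 5 same-numbered pairs correlated at 0.246 to 0.625, so they were treated as pairs in an alternative. The highest correlations, 0.625 and 0.617, were those of numbers 1 and 2, whose arrays are the 4 of low interquartile range. The block thus overlaps with array set. Of the 5 lymphomas, 2 correlated best with the control of their own number. Pairs of the other comparisons correlated at -0.189 to 0.0912 and -0.286 to 0.12 and were not treated as pairs. Alternatives covered the filter, probe sets, normalization, variance model, the Mann-Whitney U test that the methods name, array set, Y-linked signal and each mouse left out.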

Additional observations from a re-analysis of the deposited data

Results flagged for a closer look

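In 3 of the 30 sets formed by 10 transporter genes and 3 groups, 1 mouse lay far from the others of its group, by the gap to its nearest neighbour relative to the range. Chance flags about 1 in 20 such sets. Slc1a5, the glutamine exchanger, was at 7.876 in Tcf1-/- replicate 4, while the other tumor-free Tcf1-/- thymi were at 8.917 to 9.13. Slc6a4, the serotonin transporter, was at 7.76 in lymphoma replicate 7, while the other lymphomas were at 5.177 to 5.845. Slc7a7, a carrier of cationic amino acids, was at 4.719 in lymphoma replicate 5, while the other lymphomas were at 5.569 to 6.268.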

How the results depend on the processing

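The calls of Slc7a5 and Slc43a2 in lymphomas against Tcf1+/- thymi held under every alternative run, and each other call was lost under at least 1 of them. That of Slc7a11 in tumor-free Tcf1-/- thymi was lost in the Mann-Whitney U test only, where no gene could pass, and was not tested at the 60th percentile. Over the 30 values of 10 genes in 3 comparisons, 784 alternative values were computed, of which 41 lost a call, 20 gained one and 23 changed sign, none of the last in a called result. The number of transporter genes called in lymphomas against tumor-free Tcf1-/- thymi, 1 of 40, was 0 with the mouse-number block, in the same mice without it, with the Mann-Whitney U test and in the fit with a Y-linked covariate, 2 without the filter on low signals (the added gene, Slc7a8, was below the 40th percentile on all 17 arrays), with the mean of all probe sets and with the probe set of highest variance, and 0 to 2 when 1 mouse was left out, with 0 without Tcf1-/- replicate 1 or 2 and 2 without lymphoma replicate 5. In lymphomas against Tcf1+/- thymi the count of 4 was 2 with the Mann-Whitney U test and 2 to 5 when 1 mouse was left out, with 2 without Tcf1+/- replicate 3, 4 or 5. In tumor-free Tcf1-/- thymi against Tcf1+/- thymi the count of 3 was 5 without the filter, 1 with the filter at the 60th percentile, 0 with the Mann-Whitney U test, 6 without the 4 arrays of low interquartile range, 8 with the array set as a block, 5 in the fit with a Y-linked covariate and 1 to 6 when 1 mouse was left out. It was 6 without Tcf1-/- replicate 4, 5 without Tcf1-/- replicate 1 and 1 without Tcf1-/- replicate 2. The Mann-Whitney U test gave Slc7a11, Slc7a7 and Slc6a4 an adjusted p of 0.0917 each. The groups did not overlap for any of these genes, so no gene could get a lower adjusted p in that test. With so few mice its count of 0 therefore says nothing about these genes. In this comparison the mouse-number block gave a count of 2, as did the same mice without it, and 1 of the 4 same-numbered pairs correlated best with its own number, against 0 of 4 in lymphomas against tumor-free Tcf1-/- thymi. Slc7a11 and Slc6a4 were not tested at the 60th percentile. Alternatives for the lists of related genes were chosen after seeing the data. In lymphomas against Tcf1+/- thymi, the mice that share a number lost Slc7a1 and gained Slc36a4 with and without the block. Relative to the same mice without it, the block added Slc38a2 and Slc7a11 to the called genes and changed no other call. The cause of these differences was not tested. Precision is limited by the number of mice, and 6 of the 40 tested genes were above the 40th percentile on only 4 to 7 arrays.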
